A study of Drosophila melanogaster with 14 samples.

Results

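The Halloween genes encode the enzymes that turn dietary sterol into ecdysteroid, the moulting hormone of insects. Their levels were measured in whole Drosophila melanogaster animals mutant for lola, which encodes a large family of zinc finger protein isoforms. The group was chosen by gene name and holds 7 genes: neverland (nvd), spook (spo), shroud (sro), phantom (phm), disembodied (dib), shadow (sad) and shade (shd). Of these, 6 had an identifier among the 17558 listed genes. The current identifier of nvd was not among them, so nvd was not analysed here.

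Polyadenylated RNA of whole animals was sequenced in 14 libraries, in 3 sets that each held mutants and controls. Every animal carried the deficiency Df(2R)ED2076 on 1 chromosome. Opposite it, mutants carried lola-F stop (3 libraries), lola E76, the null allele (2 libraries), or lola-O (2 libraries), and controls a wild-type chromosome (3, 2 and 2 libraries, called lola-F, lola-null and lola-O controls here after their sets). lola-F and lola-null libraries came from embryos labelled as 15 h after fertilization, and lola-O libraries from adults within 10 h of eclosion. A lola-F library pooled 100 embryos and a lola-O library 10 adults; for lola-null libraries the sources used here state no pool size. Mutant embryos were sorted by hand by mCherry.

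Ecdysteroid synthesis starts with the conversion of cholesterol by the oxygenase Nvd. Sro, a short-chain dehydrogenase, and Spo, a cytochrome P450 enzyme, act in the following steps, whose intermediates are not fully known. Phm, Dib and Sad are P450 hydroxylases that finish ecdysone, and Shd is the P450 enzyme that turns ecdysone into its active form in peripheral tissues. From late embryogenesis to metamorphosis the steps up to ecdysone take place mainly in the prothoracic gland, while younger embryos make ecdysteroid outside it. Embryos that lack one of the original Halloween genes fail to form normal cuticle. In flies a close relative of spo, spookier (spok), is known to serve the same step in the gland at later stages.

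In the BDGP6 annotation spo lies on the minus strand of chromosome 3L (5590083 to 5592571), sro on the plus strand of 3R (29794597 to 29795805) and phm on the plus strand of X (18685766 to 18688433). On plus strands lie dib (3L, 4062292 to 4064551), sad (3R, 11877235 to 11879754) and shd (3L, 14614458 to 14622205). Exons of 4 members overlap those of a gene on the other strand: spo with l(3)psg2 over 308 bases, sro with Rnb over 109, dib with wit over 400 and sad with CG6962 over 53. The sources used here do not state the strand setting of the counting, so reads of such a pair cannot be told apart with certainty.

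The libraries held 3326811 to 22629694 gene counts. lola-F control 1 was the shallowest, and 66.7% of its reads fell into rows that name no gene. In the lola-null set such rows took 26.1% and 18.6% of reads in mutants and 44.5% and 30.6% in controls. All remaining libraries were at 6.32% to 9.41%. The lola-null libraries held 4178333 to 7098985 gene counts. lola itself was at 369.2 CPM (read counts scaled to the TMM library sizes of the set) in lola-null mutant 2, but the library labelled lola-null mutant 1 held 1044 CPM, against 1016 and 1414 CPM in its controls. In the other sets, whose alleles touch single isoforms, lola was at 151.1 to 235.6 CPM in lola-F mutants, 259.2 to 361.1 CPM in their controls, 109.5 to 113.3 CPM in lola-O mutants and 97.0 to 124.9 CPM in theirs. The label of lola-null mutant 1 is thus not borne out by the gene-level count, which sums all isoforms. Markers of the earliest zygotic genes were high in both lola-null controls, so the labelled age of that set is in doubt (values below). Late embryo epidermis markers summed to 1085 to 1096 CPM in these controls and 937 to 1332 CPM in lola-F controls (scale of all 14 libraries). Of 7 such markers tested 2 were called higher and 2 lower than in lola-F controls (30.1% and 27.8% of all genes). In lola-null controls most of the epidermis sum was verm, at 600.2 and 612.5 CPM (368.5 to 543.2 CPM in lola-F controls). Ddc was at 1.20 and 0.250 CPM in lola-null controls and 69.4 to 151.3 CPM in lola-F controls. ple was at 7.83 and 6.26 CPM against 93.7 to 176.2 CPM. All 6 Malpighian tubule markers tested were called lower than in lola-F controls (27.8% of all genes). The embryo sets thus differed in these markers, but the age of the lola-null set itself was not settled. In these whole animals, fewer cells of a type and less RNA per cell cannot be told apart. A floor of 3 counts was 0.157 to 0.789 CPM, according to the library, and floors and counting intervals cover counting error only.

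Most members were rare, and shd and phm were the most abundant in lola-F embryos. Per length of the longest transcript, lola-F controls held shd at 6.22 ± 0.379 CPM per kb, phm at 4.77 ± 0.401, sad at 0.569 ± 0.182 and sro at 0.491 ± 0.194 (SD, n = 3). In the same controls dib was at 0.111 ± 0.0587 CPM per kb, and spo had no read in any of the 3 libraries. The levels of sad and sro lay within each other's spread, and those of shd and phm did not overlap between libraries. In lola-null controls the order of the levels per length was another: spo (1.69 ± 0.686 CPM per kb, SD, n = 2), phm (1.15 ± 0.465), shd (0.886 ± 0.111), sad (0.651 ± 0.521), dib (0.590 ± 0.0279) and sro (0.0870 ± 0.123). Apart from sro, neighbours in that order overlapped or lay within an SD of each other. In adult controls shd led at 2.26 ± 0.128 CPM per kb, followed by sad at 0.831 ± 0.0218 (SD, n = 2). There phm (0.268 ± 0.0579 CPM per kb), sro (0.221 ± 0.313), dib (0.0431 ± 0.0609) and spo (0.0171 ± 0.0242) were lower, and neighbours among these 4 overlapped between libraries.

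**Figure D1:**
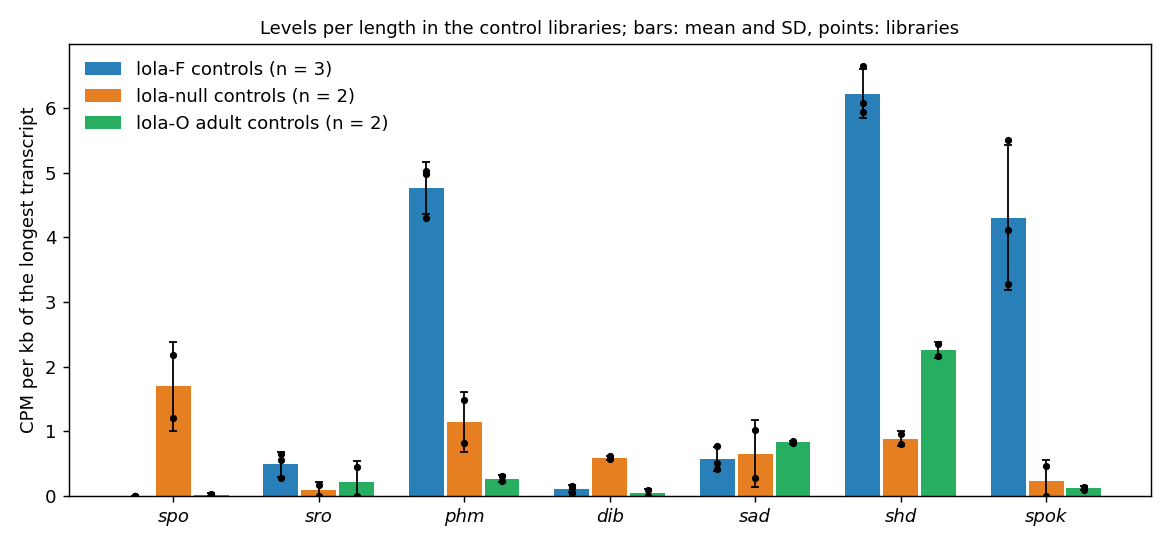
Levels of the 6 measured members and of spok in control libraries, as CPM per kb of the longest transcript (linear axis from 0). Bars show the mean and SD of 3 lola-F, 2 lola-null and 2 lola-O control libraries and points the libraries; spo was seen almost only in the lola-null controls (1.69 CPM per kb), and spok in the lola-F controls (4.30 CPM per kb).

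lola E76 is labelled as the null allele, and its comparison addresses all isoforms of the gene at once. spo was the only member that passed the test, and it was almost missing from the mutants. It had 0 and 1 counts in the mutants and 27 and 24 counts in the controls, which is 0 and 0.257 CPM against 5.87 and 3.28 CPM. Both mutant libraries lay below both controls. In this comparison spo fell by 5.18 on the log2 scale (SE 0.97), from 4.58 ± 1.83 to 0.128 ± 0.182 CPM (SD, n = 2), with an adjusted p of 0.000214 in edgeR's quasi-likelihood test. Summed over libraries, 51 counts stood against 1, a ratio of 42.8 with a 95% counting interval of 7.34 to 1723. Of the 3 members that passed the count filter 1 was called, also by DESeq2 (adjusted p = 0.00626), and of all 9288 genes tested 16.9% were called. spo passed the filter through its controls alone, the group where it was high, so 1 of 3 is no neutral count. The fall of spo passed under each of 11 alternatives, with adjusted p values of 4.28e-06 to 0.0116. Without the library labelled mutant 1 it was −4.11 on the log2 scale (adjusted p = 0.00555 in edgeR).

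l(3)psg2, the gene that overlaps spo, was at 148.1 and 56.7 CPM in the mutants and 181.8 and 206.8 CPM in the controls (log2 fold change −0.92, adjusted p = 0.202 in edgeR). The library labelled mutant 1 held 904 counts of l(3)psg2 and no count of spo. Of the 6 earliest zygotic markers 4 were tested, of which 3 fell and none rose, and Sry-alpha was at 0 in all libraries. Over all genes 9.49% were called lower in this comparison. bnk, sisA and halo were near 0 in the mutants and passed the filter through the controls alone, the group where they were high. The count of 3 of 4 is thus no neutral one. On the scale of all 14 libraries bnk, which acts in the first cell formation of the embryo, was at 8.63 and 60.6 CPM in the lola-null controls and at 0 and 0.214 CPM in the mutants. sisA, an early counter of X chromosomes, was at 18.5 and 8.14 CPM in these controls and at 0.280 and 0.214 CPM in the mutants. slam, which is also needed for cell formation, was at 149.4 and 392.1 CPM in controls and 191.2 and 50.6 CPM in mutants, so that its groups overlapped. The summed level of the list was 178.5 to 481.2 CPM in controls and 51.3 to 191.4 CPM in mutants. Amnioserosa markers, of an extraembryonic tissue of the embryo, were lower in the same mutants, with 2 of 6 tested called lower and none higher (list median −0.81 on the log2 scale, 0.09 over all genes). Their summed level was 195.5 to 234.7 CPM in controls and 78.1 to 78.5 CPM in mutants, and peb among them was at 85.3 and 72.6 CPM in controls and 13.6 and 10.9 CPM in mutants. The part of embryo age or of this tissue in the difference of spo was not tested.

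None of the other 5 measured members passed in the null mutants. shd had 6 and 7 counts in the mutants and 12 and 23 in the controls. Its levels of 0.983 and 1.80 CPM lay below those of both controls, 2.61 and 3.14 CPM. The log2 fold change was −1.10 (SE 0.63), with an adjusted p of 0.264 in edgeR. phm had 19 and 12 counts in mutants (3.11 and 3.08 CPM) and 9 and 26 in controls (1.957 and 3.553 CPM), so the mutants lay between the controls (log2 fold change 0.13, SE 0.58, adjusted p = 0.909 in edgeR). sad, dib and sro did not pass the filter on low counts and were tested without a filter. sad had 2 and 2 counts against 9 and 4, or 0.328 and 0.514 CPM against 1.957 and 0.547 CPM, without overlap (log2 fold change −1.52, SE 1.09, adjusted p = 0.463 in edgeR without a filter). CG6962, which overlaps sad, was at 367.7 and 204.1 CPM in the mutants and 160.1 and 189.0 CPM in the controls. dib had 2 and 6 counts against 6 and 9 (0.328 and 1.54 CPM against 1.30 and 1.23 CPM), and its groups overlapped. sro, the rarest of the 6 here, had 3 and 0 counts against 1 and 0, also with overlap. Adjusted p values of dib and sro were 0.722 and 0.715 in edgeR without a filter, and at these counts no difference of dib or sro was detectable.

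**Figure D2:**
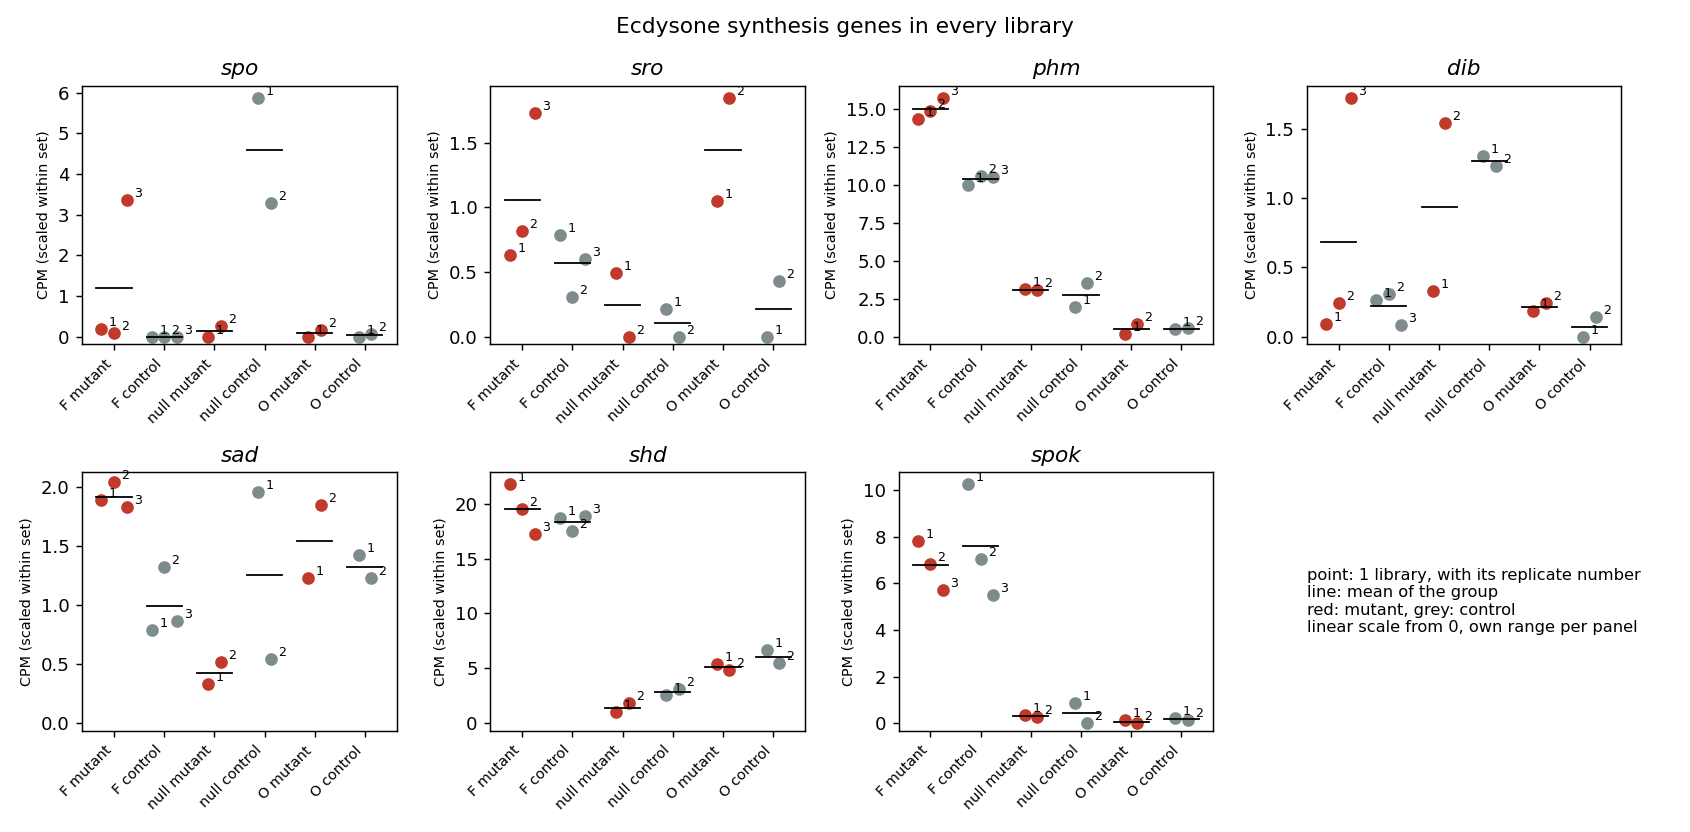
CPM of each measured member and of spok in each library (linear axis from 0, scaled within each set), with replicate numbers at the points and lines at the group means. spo is above 1 CPM only in the 2 lola-null controls (5.87 and 3.28 CPM) and in lola-F mutant 3 (3.35 CPM), while phm is higher in each lola-F mutant library (14.4 to 15.7 CPM) than in each lola-F control (9.99 to 10.6 CPM).

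lola-F is 1 isoform of the gene, and its stop allele was compared with controls in embryos of the same label. No member was called out of the 3 that passed the filter, while 7.06% of 10191 genes were called. At an unadjusted p under 0.05 edgeR passed 2 of the 3, phm and sad, and 3172 of all 10191 genes. DESeq2 called 0 of the 3. phm was the member nearest to the threshold. It had 160, 182 and 301 counts in the mutants and 38, 104 and 122 in the controls, or 14.4, 14.8 and 15.7 CPM against 9.99, 10.6 and 10.5 CPM. Every mutant library lay above every control, and the means were 15.0 ± 0.701 and 10.4 ± 0.324 CPM (SD, n = 3). The fold change was 1.44 (log2 0.53, SE 0.15), and the adjusted p of 0.0669 in edgeR missed the threshold. Over 12 alternatives the adjusted p was 0.0403 to 0.177, and phm was called under upper quartile scaling alone, a scaling that moved the median of all genes to 0.17 on the log2 scale (0.02 with TMM).

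sad was also higher in each mutant library, with 21, 25 and 35 counts (1.89, 2.04 and 1.83 CPM) against 3, 13 and 10 (0.789, 1.32 and 0.861 CPM). Its fold change was 1.87 (log2 0.90, SE 0.33), with an adjusted p of 0.115 in edgeR. CG6962, which overlaps it, was at 8.35 to 11.7 CPM in mutants and 6.72 to 12.2 CPM in controls. shd, the peripheral enzyme, had 243, 240 and 329 counts (21.8, 19.6 and 17.2 CPM) against 71, 172 and 219 (18.7, 17.5 and 18.9 CPM), and the groups overlapped. Its log2 fold change was 0.09 (SE 0.15, adjusted p = 0.707 in edgeR).

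spo, dib and sro did not pass the filter, and all 3 were highest in lola-F mutant 3, the deepest library. spo had 2, 1 and 64 counts in the mutants and none in any control, or 0.180, 0.0815 and 3.35 CPM. Taken over the group, mutants were at least 13.3-fold higher than a floor of 3 counts in the controls, a bound that rests on mutant 3. dib had 1, 3 and 33 counts (0.0898, 0.245 and 1.73 CPM) against 1, 3 and 1 (0.263, 0.305 and 0.0861 CPM). sro had 7, 10 and 33 counts (0.629, 0.815 and 1.73 CPM) against 3, 3 and 7 (0.789, 0.305 and 0.603 CPM). The groups of dib and sro overlapped. In edgeR without a filter the adjusted p values were 0.136 for spo, 0.361 for dib and 0.351 for sro. Over its alternatives spo had adjusted p values of 0.0336 (DESeq2 without a filter, the only one to call it) to 0.344. Without mutant 3 the log2 fold change of dib was −0.21 (1.80 with it).

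In lola-F mutant 3 markers of the earliest zygotic genes were also higher than in the other lola-F libraries. slam was at 13.6 CPM there against 1.45 to 3.28 CPM in the other 5 lola-F libraries, on the scale of all 14 libraries. sisA was at 4.39 CPM (0 to 1.37 CPM in the others) and halo at 1.32 CPM (0 to 0.194 CPM). bnk was at 0.360 CPM and nullo at 0. The summed level of the list was 3.39 to 19.7 CPM in lola-F mutants and 1.54 to 3.37 CPM in lola-F controls. The part of these transcripts in the levels of spo, dib and sro was not tested. Over the 14 libraries the log2 CPM of spo and dib correlated with r = 0.78, a description over libraries that share sets and stages.

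l(3)psg2, which overlaps spo, was lower in the lola-F mutants, at 12.1, 12.1 and 12.5 CPM in mutants and 22.1, 19.2 and 26.7 CPM in controls (log2 fold change −0.89, adjusted p = 0.0342 in edgeR). It did not pass in 6 of 12 alternatives, among them the fits without mutant 1, mutant 2, control 1 or control 2, and its log2 fold change was −0.04 once the length trend was removed within libraries. wit, which overlaps dib, was at 29.4, 28.1 and 18.7 CPM in lola-F mutants and 39.2, 34.8 and 31.7 CPM in controls.

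**Figure D3:**
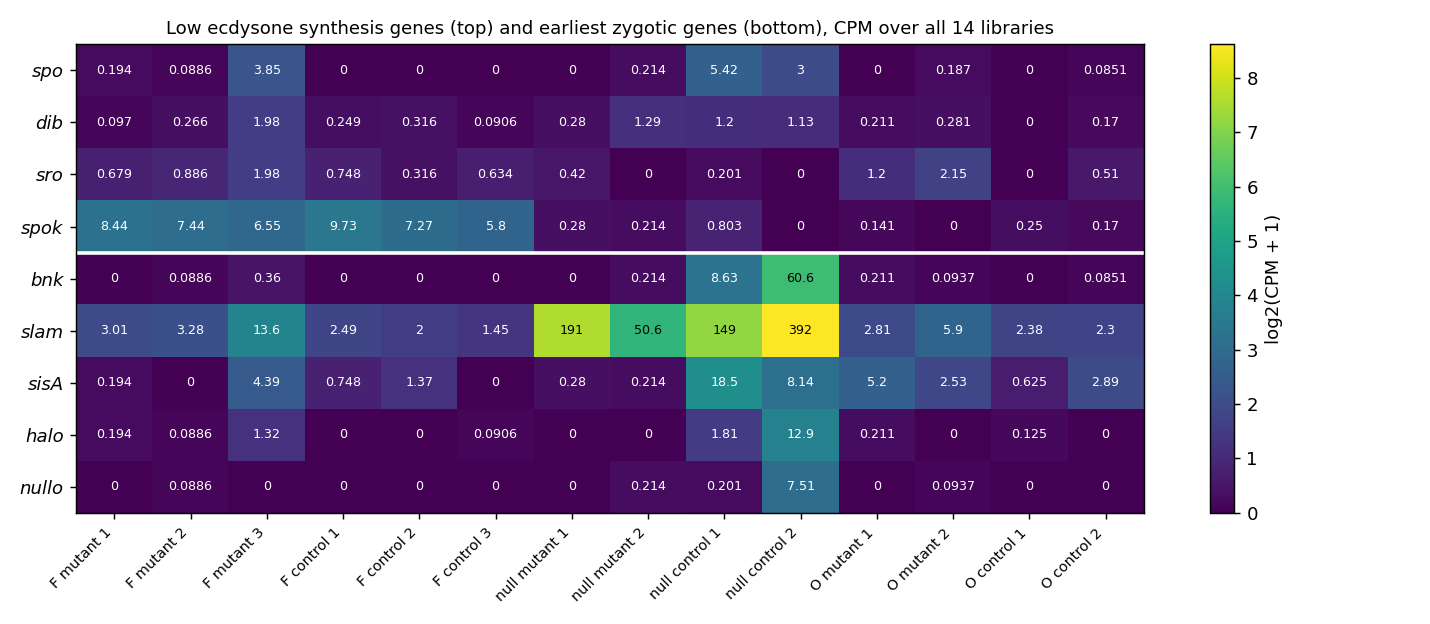
CPM on the scale of all 14 libraries, printed in each cell and coloured as log2(CPM + 1), for spo, dib, sro and spok (top) and 5 of the earliest zygotic genes (bottom). The lola-null controls carry both spo (5.42 and 3.00 CPM) and bnk (8.63 and 60.6 CPM), and lola-F mutant 3 stands apart from the other lola-F libraries in spo (3.85 CPM), slam (13.6 CPM) and sisA (4.39 CPM).

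The lola-O mutants were compared with controls as young adults, in which ovary and peripheral tissues are possible sites of these genes. No member was called out of 3 that passed the filter, and 0.558% of 12906 genes were called. Among these 3, sro passed the filter through the mutants alone, the group where it was higher. At an unadjusted p under 0.05 edgeR passed 1, sro, and 2085 of all 12906 genes. DESeq2 called neither sad nor shd and gave sro no adjusted p. sro had the largest difference, with 17 and 23 counts in the mutants and 0 and 6 in the controls, or 1.05 and 1.85 CPM against 0 and 0.433 CPM. Both mutants lay above both controls, and the ratio of the summed counts, 40 against 6, was 5.18 (95% counting interval 2.18 to 14.9). The fold change in edgeR was 5.28 (log2 2.40, SE 0.81), with an adjusted p of 0.215 and a range of 0.0684 to 0.543 over 9 alternatives. Rnb, which overlaps sro, was at 14.3 and 17.1 CPM in mutants and 13.2 and 14.1 CPM in controls.

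shd had 88 and 60 counts in lola-O mutants (5.42 and 4.82 CPM) and 56 and 76 in controls (6.65 and 5.48 CPM), without overlap, and its log2 fold change was −0.23 (SE 0.25, adjusted p = 0.709 in edgeR). sad had 20 and 23 counts (1.23 and 1.85 CPM) against 12 and 17 (1.43 and 1.23 CPM), and overlapped (adjusted p = 0.853 in edgeR). phm had 3 and 10 counts against 4 and 8, dib 3 and 3 against 0 and 2, and spo 0 and 2 against 0 and 1. These 3 did not pass the filter, and their adjusted p values without it were 0.944, 0.756 and 0.935 in edgeR. Fat body markers summed to 7959 to 8248 CPM in lola-O mutants and 839.6 to 992.6 CPM in controls (scale of all 14 libraries). In the mutants most of this sum was Lsp2, at 6159 and 5707 CPM (416.0 and 392.6 CPM in controls). Yp1 was near 0 with overlapping groups, and Yp2 was lower in both mutants than in both controls. Of 8 markers tested 3 were called higher, against 0.333% of all genes. The part of fat body markers in the member values was not tested. Follicle cell markers were near 0 in adults, with 3.25 to 4.57 CPM summed over 9 genes.

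**Figure D4:**
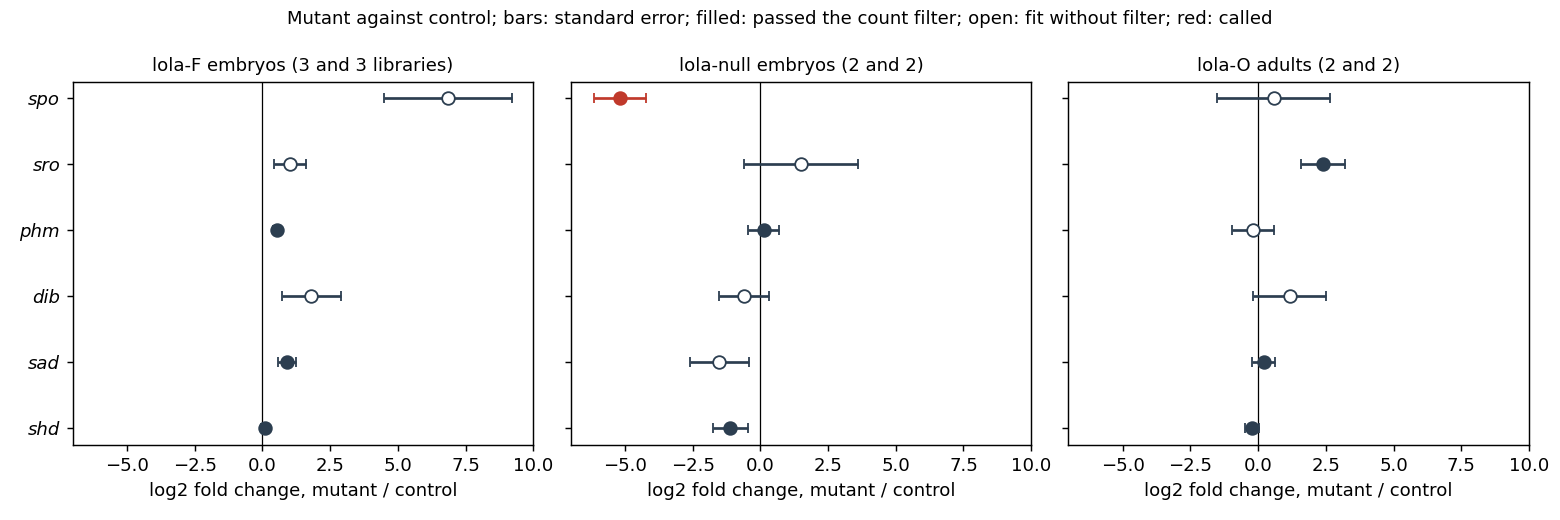
Log2 fold change of mutant over control for the 6 measured members in each set, with standard errors. Filled points passed the count filter, open points come from the fit without a filter, and the red point, spo in lola-null embryos (−5.18), is the only one called.

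Whether the effects of the null and lola-F alleles differed was tested as an interaction over the 10 embryo libraries. None of 5 members tested was called, against 8.59% of 10848 genes, and the median of all genes was itself 0.31 on the log2 scale. At an unadjusted p under 0.05 edgeR passed 3, spo, sad and shd, and 2664 of all 10848 genes. DESeq2, which gave an adjusted p to phm and shd, called neither. Of the lola-F mutants only mutant 3 held spo above the floor of 3 counts. spo was lower in both null mutants and above 0 in each lola-F mutant, with a log2 difference of −11.65 (SE 3.03, adjusted p = 0.0516 in edgeR). Because lola-F controls had no spo count, this value depends on the prior count and is no measure of size. Over 15 alternatives its adjusted p was 0.00130 to 0.133, and 6 of them called it, among them the fits without lola-F mutant 1 (0.0332), mutant 2 (0.0275) or mutant 3 (0.0431). With all lola-F libraries kept and any 1 lola-null library left out, it was 0.0722 to 0.133. sad was lower in both null mutants, at 2 counts each, and higher in all lola-F mutants than in their controls. Its log2 difference was −2.18 (SE 0.89, adjusted p = 0.162 in edgeR). The difference was −0.97 for shd (SE 0.41, adjusted p = 0.172), −2.12 for dib (SE 1.57, adjusted p = 0.445) and −0.15 for phm (SE 0.42, adjusted p = 0.867), and sro did not pass the filter.

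The controls of the 3 sets were compared to show the members across stages, in 1 fit over 7 libraries, where set, preparation and stage cannot be told apart. Between lola-null and lola-F controls 4 of 5 members tested were called, 2 in each direction, while 57.9% of 13238 genes were called. Of these members spo and dib passed the filter through the lola-null controls alone, the group where they were high. On the common scale of the controls spo was at 5.38 and 3.06 CPM in lola-null controls and at 0 in all 3 lola-F controls. Summed over libraries, lola-null controls were at least 31.7-fold higher than a floor of 3 counts in lola-F controls (adjusted p = 0.000146 in edgeR). dib was at 1.20 and 1.15 CPM in lola-null controls and 0.265, 0.322 and 0.0915 CPM in lola-F controls, 5.19-fold higher (log2 2.38, SE 0.73, adjusted p = 0.0173 in edgeR). DESeq2 did not call dib (adjusted p = 0.289), nor did edgeR without lola-null control 1 (0.103) or without either adult control (0.0712 and 0.0724).

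phm and shd were lower in lola-null controls. phm was at 1.79 and 3.31 CPM in lola-null controls and 10.1, 11.2 and 11.2 CPM in lola-F controls, 4.14-fold lower in the former (log2 −2.05, SE 0.39, adjusted p = 0.00112 in edgeR). shd was at 2.39 and 2.93 CPM against 18.8, 18.5 and 20.04 CPM, 7.09-fold lower (log2 −2.83, SE 0.31, adjusted p = 2.26e-05 in edgeR). Groups did not overlap for spo, dib, phm or shd, in a comparison that called 57.9% of all genes. sad was at 1.79 and 0.509 CPM against 0.795, 1.40 and 0.915 CPM and overlapped (adjusted p = 1 in edgeR). sro did not pass the filter, and its 1 count in lola-null controls against 13 in lola-F controls gave a ratio of 6.97 (95% counting interval 1.05 to 296; adjusted p = 0.164 in edgeR without a filter).

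spok, the relative of spo, is no member, and it was singled out after its values were seen. It had 4 and 0 counts in lola-null controls and 39, 69 and 64 in lola-F controls, on the control scale 0.797 and 0 CPM against 10.3, 7.41 and 5.86 CPM. The controls of the embryo sets thus stood in opposite order for spo and spok, and spok was 22.3-fold lower in lola-null controls (log2 −4.48, SE 0.85, adjusted p = 0.00106 in edgeR). lola-F mutants had 87, 84 and 109 counts of spok, which did not pass (log2 fold change −0.13, adjusted p = 0.771 in edgeR). lola-null mutants had 2 and 1 counts, and in that set spok did not pass the count filter, so a difference could not be shown.

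In adult controls 2 of 5 members tested were lower than in lola-F controls and none higher, against 64% of 13238 genes called. phm was at 0.599 and 0.745 CPM, 15.5-fold lower than in lola-F controls (log2 −3.96, SE 0.45, adjusted p = 2.94e-05 in edgeR), and shd at 8.39 and 7.08 CPM, 2.48-fold lower (log2 −1.31, SE 0.27, adjusted p = 0.00173 in edgeR). sad was at 1.80 and 1.58 CPM in adult controls, above each lola-F control, with a log2 difference of 0.65 (adjusted p = 0.325 in edgeR). dib was at 0 and 0.186 CPM in adult controls (log2 difference −0.84, adjusted p = 0.522), and spo had 1 count there and none in lola-F controls (adjusted p = 0.239, both in edgeR). sro, at 0 and 0.559 CPM in adult controls, overlapped with lola-F controls and did not pass the filter (adjusted p = 0.586 in edgeR without a filter). Against lola-null controls 4 of 5 members were called, shd higher and spo, phm and dib lower in adults, with 76.3% of all genes called. Here too spo and dib passed the filter through the lola-null controls alone, the group where they were high, so 4 of 5 is no neutral count. shd was 2.86-fold higher (log2 1.52, SE 0.32, adjusted p = 0.00146), and phm 3.75-fold lower (log2 −1.91, adjusted p = 0.00441) in edgeR. The ratio of summed spo counts, 51 in lola-null controls to 1 in adults, was 69.0 with a 95% counting interval of 11.8 to 2777. dib had 15 counts against 2, a ratio of 10.1 (95% counting interval 2.36 to 91.4). Without lola-null control 2, phm did not pass (adjusted p = 0.0743 in edgeR), nor did dib without lola-O control 1 (0.131) or in DESeq2 (0.136). All 3 stage comparisons share control libraries, and the median of all genes was 0.23 and 0.55 on the log2 scale for adults against lola-F and lola-null controls.

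Other genes of the pathway were described by list. Over all genes 3.73% were called lower in lola-F embryos, and 7.42% higher in lola-null embryos. Among 11 genes of sterol supply and cofactors 10 were tested in lola-F embryos and 1 was called, lower (median log2 fold change −0.02, 0.02 over all genes). It was Npc1b, a sterol transporter of the gut, at 31.6 ± 3.07 CPM in mutants and 56.6 ± 4.60 CPM in controls (SD, n = 3; log2 fold change −0.84, SE 0.14, adjusted p = 0.0283 in edgeR). This call was lost without lola-F mutant 1, mutant 2, control 1 or control 2 (adjusted p 0.0788 to 0.124), and with the length trend removed, where it stood at −0.39 on the log2 scale (adjusted p = 0.127 in edgeR). The replicate block lost it as well (adjusted p = 0.0974 in edgeR). In lola-null embryos Npc1b was the only 1 of 9 tested to be called, and it was higher, at 8.90 ± 1.32 CPM against 2.07 ± 0.162 CPM (SD, n = 2; log2 fold change 2.09, SE 0.55, adjusted p = 0.00737 in edgeR; list median 0.43, 0.09 over all genes). It did not pass without lola-null control 1 or control 2 (0.212 and 0.219). The interaction called Npc1b as well (log2 difference 3.18, SE 0.36, adjusted p = 0.000754 in edgeR), under each of 16 alternatives. Between the controls of the embryo sets Npc1b was 30.3-fold lower in the lola-null set, at 1.92 ± 0.172 CPM against 58.9 ± 3.93 CPM. Start1, a sterol carrier linked to ecdysteroid synthesis, was 10.1-fold higher there, at 185.1 ± 27.6 CPM against 18.3 ± 1.98 CPM (adjusted p = 5.10e-07 and 5.94e-07 in edgeR).

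Of 11 transcription factors known to act on synthesis genes or on the gland 9 were matched. In lola-F embryos 2 of 8 tested were called and both were lower, with 7.06% of all genes called and 3.73% called lower. The list median was −0.64 and that of all genes 0.02. An unadjusted p under 0.05 was found for 6 of the 8, and for 3172 of all 10191 genes. woc was at 52.9 ± 7.97 CPM against 97.2 ± 2.61 CPM (log2 −0.88, adjusted p = 0.0308) and mld, an activator of nvd and spok, at 28.8 ± 3.16 CPM against 45.7 ± 2.54 CPM (log2 −0.67, adjusted p = 0.0417, both in edgeR, SD, n = 3). These calls ended with lola-F mutant 1, mutant 2, control 1 or control 2 left out and with the length trend removed, where mld was at a log2 fold change of 0.22. Both were also lost with the replicate block (adjusted p = 0.108 for woc and 0.120 for mld in edgeR), and mld with no filter (0.0564). In lola-null embryos 4 of 8 tested were called, all lower, with 16.9% of all genes called and 9.49% called lower (list median −1.53, 0.09 over all genes). Earliest zygotic and amnioserosa markers were lower in the same mutants (3 of 4 and 2 of 6 tested). The 3 zygotic markers passed the filter through the controls alone, where they were high. In lola-null controls 7 of the 8 factors tested were higher than in lola-F controls, against 30.1% of all genes. The part of these differences in the falls was not tested. vvl, a factor required for gland identity, was at 19.8 ± 0.669 CPM against 130.2 ± 7.48 CPM (log2 −2.72, SE 0.43, adjusted p = 2.89e-05). Kr-h1, a juvenile hormone target, was at 0.806 ± 0.676 CPM against 6.22 ± 2.03 CPM (log2 −3.07, adjusted p = 0.00178), and ftz-f1 at 43.8 ± 19.8 CPM against 168.8 ± 52.0 CPM (log2 −1.94, adjusted p = 0.00252, all in edgeR, SD, n = 2). With the length trend removed the log2 fold changes of vvl and Kr-h1 were −1.95 and −2.24. The fall of vvl passed in each of 11 alternatives, that of Kr-h1 not without lola-null control 2 (adjusted p = 0.118 in edgeR), and that of ftz-f1 neither without that control (0.250) nor with the length trend removed (0.237). vvl was also called in the interaction (log2 difference −1.94, adjusted p = 0.0117 in edgeR). In lola-O adults edgeR and DESeq2 called 0 of 7 tested (list median −0.45), and 2 had an unadjusted p under 0.05 (2085 of all 12906 genes).

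Genes of the ecdysone receptor and response were lower in 3 of 15 tested in lola-F embryos and in 7 of 17 in lola-null embryos, and higher in none. Over all genes 3.73% and 9.49% were called lower. List medians were −0.73 and −0.98 on the log2 scale, with 0.02 and 0.09 over all genes. An unadjusted p under 0.05 was found for 11 and 9 of the tested genes. Over all genes it was found for 3172 of 10191 and 2559 of 9288. The part of the markers that were lower in lola-null mutants was not tested here either. crol, an ecdysone-regulated zinc finger gene, was among the called in both, at 90.4 ± 21.9 CPM against 182.8 ± 32.6 CPM in lola-F embryos (log2 −1.02, adjusted p = 0.0435 in edgeR; SD, n = 3) and 30.1 ± 6.29 CPM against 181.5 ± 18.2 CPM in lola-null embryos (log2 −2.59, adjusted p = 7.70e-05 in edgeR; SD, n = 2). The lola-F call of crol was lost without any 1 of mutant 1, mutant 2, control 1, control 2 or control 3, and its log2 fold change was −0.16 with the length trend removed. That call was also lost with the replicate block (adjusted p = 0.127 in edgeR). In lola-null embryos crol was at −1.45 with the length trend removed and still passed (adjusted p = 0.00645 in edgeR). In lola-O adults edgeR called 0 of 19 (list median −0.17), DESeq2 called 3, and 7 had an unadjusted p under 0.05 (2085 of all 12906 genes). Prothoracicotropic hormone signalling (5, 5 and 6 genes tested in the lola-F, lola-null and lola-O sets), ecdysone inactivation (1, 2 and 1) and ecdysone transport (2 in each) had no gene called by edgeR in any mutant. For these 3 lists an unadjusted p under 0.05 was seen only in lola-O adults, for 2 genes of hormone signalling and 1 of inactivation, and DESeq2 called the latter alone.

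The P450 relatives of the members were counted as lists as well. Over all genes 3.73% were called lower in lola-F embryos, and 7.42% higher in lola-null embryos. Among 9 other mitochondrial P450 genes 1 of 8 tested was lower in lola-F embryos, Cyp12d1-p, at 0.179 ± 0.0835 CPM against 1.92 ± 0.543 CPM (log2 −3.45, SE 0.48, adjusted p = 0.0223 in edgeR; SD, n = 3), a call lost without any 1 of mutant 1, mutant 2, control 1 or control 2. The call was also lost with the replicate block (adjusted p = 0.0850 in edgeR). Its near-identical neighbour Cyp12d1-d was at 0 in all libraries, so reads of this pair are uncertain. Cyp12d1-p passed the filter through its controls alone, where it was high. The list median was 0.04 on the log2 scale (0.02 over all genes). In edgeR 5 of the 8 had an unadjusted p under 0.05 (3172 of all 10191 genes). DESeq2 gave Cyp12d1-p no adjusted p, and called 1 of the 7 genes to which it gave one. In lola-null embryos 2 of 5 tested were higher, among them Cyp49a1 at 33.0 ± 8.93 CPM against 10.9 ± 1.33 CPM (log2 1.59, SE 0.46, adjusted p = 0.0132 in edgeR; SD, n = 2), which did not pass without either control (0.316 and 0.241). Of 5 other genes of the P450 clan of spo and phm, 1 of 3 tested was higher in lola-null embryos, Cyp304a1, at 156.7 ± 67.0 CPM against 63.3 ± 1.20 CPM (log2 1.31, adjusted p = 0.0363 in edgeR). It was called in 6 of 11 alternatives.

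The genes most like a member were sought by Pearson's r of log2 CPM over the 14 libraries, among 12612 genes with a mean of at least 1 CPM; spo, sro and dib were below that mean and were not searched, although spo was at 1.28 CPM over the 10 embryo libraries. phm was most like CG3588 (r = 0.98), CG7294 (0.98) and CG13705 (0.97). shd was most like Ric (0.99), Lcch3 (0.99) and LysE (0.99), and sad most like Snx16 (0.89), a gene listed as FBgn0053139 (0.88) and yip2 (0.87). Over the 10 embryo libraries phm was most like Acsf2, Svip and MFS12 (r = 0.998, 0.996 and 0.995), shd most like CG8492, eIF1A and CG32052 (0.997, 0.996 and 0.996), and sad most like Drp1 (0.94), CkIIalpha-i1 (0.93) and Snx16 (0.92). These libraries fall into sets and stages, so such values describe which genes share the order of the sets. Between members r was highest for spo with dib (0.78), sad with shd (0.63) and phm with shd (0.57) over the 14 libraries.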

How the data were processed

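Whole-animal RNA was sequenced from directional libraries, per the labels' protocols. Per the submitters' processing notes, the authors used STAR 2.5.0c, HTSeq 0.6.1p1 and BDGP6, with annotation release and strand setting not given in the sources used here. The deposited values are whole read counts: every file holds the count per gene of 1 library. Embryo files are named as filtered, and the sources used here do not say what was filtered. Rows naming no gene (6.32% to 66.7% of reads) were left out.

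Members and gene lists were chosen with earlier results of these data known. Identifiers were matched to the BDGP6 annotation by symbol; phm is listed there as phtm, and FBgn0005630 was read as lola from general knowledge. Of 17558 identifiers 17252 matched. The listed genes sean and Wall, and the current identifier of br, were not matched and are not analysed here.

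In R 4.3.3, edgeR 4.0.16 (filterByExpr, TMM, quasi-likelihood F test, Benjamini-Hochberg over all genes, threshold 0.05) was run per set, on the interaction and on the 7 controls. The test was tried on simulated data. Standard errors were derived from the F statistic. Members that did not pass the filter were tested without it. Alternatives were DESeq2 1.42.0, other scalings, no filter, a length correction, a replicate block and leaving out each library. Nothing says that replicates were separate crosses, so the p-values cover the spread of these libraries alone, and that spread may be technical. No pair of libraries within a group agreed within sampling noise. The closest pair, at a chi-square of 3.18 per degree of freedom, was lola-F mutants 1 and 2, against 71.1 and 89.9 for either with mutant 3 and 15.8 or more for every other pair, and no gene was called in lola-F embryos with either of these 2 left out.

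All members are reported. Of each list, up to 3 called genes with the smallest p could be named per comparison; which of these are named was chosen after their values were seen. Counting intervals are exact 95% intervals of a ratio of 2 summed counts. The share of all genes whose groups did not overlap was not computed, so a lack of overlap only describes the libraries.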

Additional observations from a re-analysis of the deposited data

Results flagged for a closer look

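For spo the null mutants lay below their controls and the lola-F mutants above theirs, with a difference of −11.65 on the log2 scale. The interaction missed the threshold (adjusted p = 0.0516 in edgeR). spo was lower in 2 of 2 null mutants and above 0 in 3 of 3 lola-F mutants, of which 2 held 2 and 1 counts. Those 2 libraries were under the floor of 3 counts, so the direction in the lola-F set rests on mutant 3.

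For sad the difference was −2.18 on the log2 scale, with levels lower in 2 of 2 null mutants and higher in 3 of 3 lola-F mutants. The interaction did not pass (adjusted p = 0.162 in edgeR). Null mutants held 2 counts each, under the floor of 3 counts, and mutant 2 (0.514 CPM) lay close to control 2 (0.547 CPM). A direction in the null set is thus not certain.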

How the results depend on the processing

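Of the log2 fold changes computed under alternatives for members and named genes, 1 changed sign from a call: mld in lola-F embryos, 0.22 with the length trend removed. In 23 cases an uncalled value changed sign or became 0, 56 calls were lost, and 8 values gained a call. With DESeq2, upper quartile scaling, no filter, the length trend removed or the replicate block, lola-F embryos had 1932, 1382, 427, 324 and 0 called genes (719 as reported). Upper quartile scaling gave 943 higher and 439 lower and the length correction 278 and 46, against 339 and 380. In lola-O adults DESeq2, upper quartile scaling, no filter and the replicate block gave 342, 117, 415 and 669 called genes (72), and the block gave 435 (932) in the interaction.

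Members called in lola-F embryos were 1 with upper quartile scaling (0), and in the interaction 1 (0) with upper quartile scaling, no filter or the replicate block. Leaving out 1 library gave 0 (mutant 1, mutant 2, control 1 or control 2) to 1150 genes (control 3) in lola-F embryos, 546 (control 2) and 677 (control 1) to 2799 (mutant 2) and 3112 (mutant 1) in lola-null embryos (1570), 5 (control 1) to 227 (either mutant) in lola-O adults and 293 (lola-null control 2) to 1569 (lola-null mutant 2) in the interaction. It gave 0 to 1 members in the interaction and 2 (without lola-null control 2) to 4 in adult against lola-null controls; a group left with 1 library is assumed to vary like the others. The interaction split of 749 higher and 183 lower became 534 and 361 with upper quartile scaling and 521 and 521 with no filter, and the adult against lola-F control split of 5286 and 3182 became 4668 and 4339 with upper quartile scaling. In lola-null embryos the length correction gave 1036 higher and 549 lower (689 and 881). Deviations of same-numbered libraries correlated at −0.11 to −0.02 (lola-F), −0.22 (lola-null) and 0.10 (lola-O). With 2 libraries per group the deviations mirror each other, so these values cannot tell whether lola-null or lola-O libraries were paired. With the replicate block the interaction p of vvl was 0.0674 and that of spo 0.0314 (adjusted, edgeR). A crossed replicate block, added after seeing the data, gave 2095 genes in lola-null embryos (1179 with same numbers). The causes were not tested. Depth limits spo, dib and sro, which had under 10 counts in most libraries.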
